A study of Mus musculus with 18 samples.

Results

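A set of 580 KAP1 peaks in mouse embryonic stem (ES) cells was called when immunoprecipitated wild-type chromatin was compared with Trim28-knockout chromatin, and was missing when it was compared with input. The peaks were chosen by 1 rule: a peak of the deposited wild-type-against-knockout list (2382 peaks) that shares no base with any peak of the wild-type-against-input list (3099 peaks). They make up 24.3% of the first list. The other 1802 peaks of that list are also in the input-control list, each with the same start and end, and 1297 peaks are in the input-control list alone. Because the peak calls themselves chose the set, the calls and scores below are descriptions and carry no test.

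The cells were ES3, an ES line of the C57BL/6 strain grown in serum with LIF. Knockout cells were taken 4 days after a Cre recombinase induced with 4-hydroxytamoxifen, and wild-type cells were cultured for the same 4 days. KAP1 was precipitated with a rabbit polyclonal antibody and H3K9me3 with a commercial one. Each condition has 1 deposited list, so no spread between replicates can be given for any peak. RNA came from ES3 cells and from mouse embryonic fibroblasts (MEFs) taken 5 days after Cre induction, with pooled duplicates giving 1 library per group. RNA differences therefore have no replicate check and no p-value.

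KAP1, encoded by Trim28, is a corepressor that does not bind DNA by itself. KRAB zinc finger proteins carry it to their target sequences, many of them in endogenous retroviruses, where it brings in the methyltransferase SETDB1 and heterochromatin protein HP1. H3K9me3, the histone mark that SETDB1 places, is the usual sign of this repression in ES cells.

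The labels and marker genes were checked first. Trim28 RNA measured 1051 RPKM in wild-type and 37.2 RPKM in knockout ES3 cells, so 3.54% of the wild-type level was left, and 62.8 and 5.84 RPKM in MEFs. Pou5f1, the ES cell factor OCT4, measured 820.2 RPKM in wild-type ES3 cells, while both MEF libraries list it at 0. Read depth is unknown for all files.

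A peak over a gene's start can be set beside a promoter sequence. Of the set 4 peaks (0.690%) held the start of an annotated gene, against 14 of 1802 shared peaks (0.777%). The pair at the olfactory receptor genes Olfr772 and Olfr773 shows a property that recurred in the set, a peak repeated with the same width and score within 1 Mb. The peaks chr10:128611692-128612202 and chr10:128624092-128624602 (mm9) are each 511 bp wide with a score of 72.27, and each gene's start lies 383 bp into its peak. The promoters below are from RefSeq (GRCm38.p6, chr10:129175005-129175304 for Olfr772 and chr10:129187370-129187669 for Olfr773, minus strand), and the part of each upstream window that aligns with the other is shown 5′ to 3′, bases 37 to 250 and 1 to 215. Capitals mark bases that differ or are missing in the other gene.
Olfr772: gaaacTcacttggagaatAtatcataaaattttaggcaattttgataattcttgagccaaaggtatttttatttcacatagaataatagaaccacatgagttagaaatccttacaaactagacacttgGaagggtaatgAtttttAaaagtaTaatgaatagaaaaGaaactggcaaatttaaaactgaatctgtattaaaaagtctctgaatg
Olfr773: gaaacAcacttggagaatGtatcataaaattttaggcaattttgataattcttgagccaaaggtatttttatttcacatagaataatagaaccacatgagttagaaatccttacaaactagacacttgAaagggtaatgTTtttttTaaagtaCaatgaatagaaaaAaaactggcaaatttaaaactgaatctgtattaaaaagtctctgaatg
The 2 stretches shared 207 bases, differed at 7 and had 1 gap, an identity of 96.3%. Reads from sequence this similar may not be assigned to 1 copy, and their treatment by the authors is not given in the sources used here. RefSeq starts may differ from those of the deposited mm9 transcripts, so the sequences show the locus and not the exact bases under the peak. On the minus strand most of each peak lies within the gene, and part of the printed upstream stretch lies outside the peak.

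Both olfactory receptor genes were listed at 0 RPKM in both ES3 libraries. Gpr55, a G-protein-coupled receptor gene, had its start in chr1:87857329-87857881 (score 52) and stood at 0.0302 RPKM in wild type and 0.0875 in knockout. Gm4858 had its start in chr3:92877333-92877876 (score 52.52); its wild-type value is listed at 0, with 0.928 and 0.791 RPKM for its 2 transcripts in the knockout. All 4 genes were thus below 1 RPKM, the level used here to call a gene measured. The 250 bases upstream of Olfr772, Olfr773 and Gpr55 held 0, 0 and 3 CpG dinucleotides against a median of 6 over 32851 RefSeq promoters. On either strand they had no match to TGCCGC (the core bound by the KRAB zinc finger protein ZFP57), GGGCGG or CCAAT, which 8.68%, 32.7% and 33.8% of those promoters hold.

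Repeated peaks of this kind made up a larger share of the set than of the peaks shared by both lists. Of the 580 peaks, 24 (4.14%, Wilson 95% interval 2.80 to 6.08) had another peak of the same width and score within 1 Mb, against 21 of 1802 shared peaks (1.17%, 0.763 to 1.78). The 24 peaks fell into 11 groups of at most 3. For each group the gene with the nearest start is named, whatever its distance. A group of 3 on chromosome 4 had Gm12886 and Ppt1, which encodes a lysosomal thioesterase. Another group of 3 on chromosome 7 had Gm7696 and the vomeronasal receptor gene Vmn2r42. Among the pairs, 1 had the zinc finger gene Zfp97 as its nearest gene and 1 had Abpb, a secreted androgen-binding protein gene. Intervals here and below cover counting error only, and neighbouring peaks are not independent of one another.

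Peaks of the set were of ordinary width and low score. Their median width was 567.5 bp (260 to 5033) against 557 bp for the shared peaks. The score is the authors' own value, and its scale is not stated. It had a median of 55.5 in the set, with the lowest at 50.01 and the highest at 180.3, while the shared peaks had a median of 61.8 and reached 1170. Peaks of the input-control list alone had a median of 56.5 and reached 1794.

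**Figure D1:**
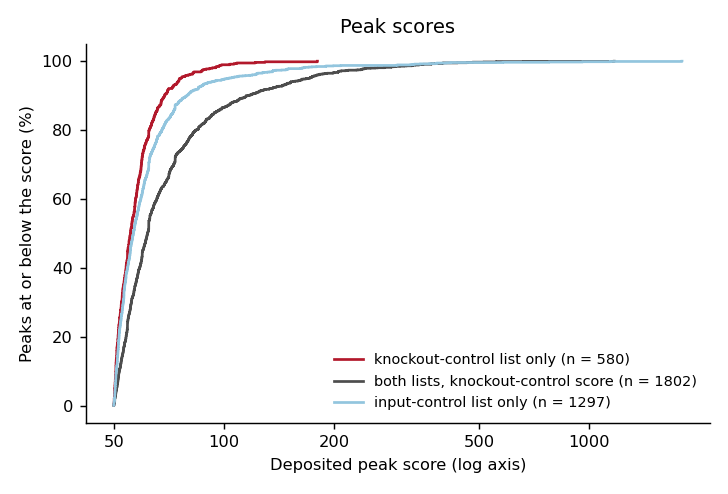
Cumulative share of peaks (vertical axis, percent) at or below each deposited score (horizontal log axis) for 580 knockout-control peaks absent from the input-control list, 1802 peaks in both lists and 1297 in the input-control list alone. The 580 peaks end at 180.3, and the other curves run past 1000.

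Most of the 580 peaks were far from any input-control peak. The median distance was 161516 bp, 24 peaks were within 10 kb and 7 within 1 kb. The 3 nearest were chr4:146031574-146032407 at 76 bp (score 66.57), chr14:101215069-101215542 at 126 bp (score 54.47) and chr14:103618718-103619320 at 136 bp (score 50.28). On the other side of the rule, the shared peaks with the lowest scores in the input-control list were chr16:31388702-31389290, chr16:79793716-79794304 and chr17:66543418-66544006, all 589 bp wide with a score of 50.05 in both lists. Among the 1802 shared peaks, 723 had the same score in both lists, 631 had a lower one against knockout and 448 a higher one. None of the 580 peaks overlapped any of 1898 peaks called in knockout chromatin over input (Wilson upper bound 0.658%). Of the 1802 shared peaks 3 did (0.166%), so the share was near 0 in both classes. That call uses the same knockout immunoprecipitate as the rule and is not independent of it.

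The highest scores were on the sex chromosomes and chromosomes 4, 12, 16 and 17. The first was chrX:72957058-72958318 (score 180.3), inside the transcript 4933407K13Rik and partly over H3K9me3 in both wild type and knockout. The next were chrX:53240661-53241439 (129.5), 148310 bp from the start of 3830403N18Rik, and chr12:66192189-66192814 (121.8), inside Fancm, a DNA translocase gene of the Fanconi anaemia pathway. They were followed by chr4:135954499-135955280 (108.4), 24159 bp from the serotonin receptor gene Htr1d, and chr17:80550050-80550854 (106.7), inside the galactose mutarotase gene Galm. The Galm peak lay on 321 bp of H3K9me3 that was found in wild type only. Next, chr4:145724108-145726056 (103.8), was 1949 bp wide, lay 39586 bp from Zfp992 and was fully covered by H3K9me3 in both conditions. The remaining 4 of the first 10 were chrY:2501213-2501744 (98.49), a chromosome for which the RNA tables give no gene start, chrX:53399291-53399644 (97.42) inside 3830403N18Rik, chrX:166409588-166412309 (96.88) inside the ubiquitin ligase gene Mid1, and chr16:75012804-75013342 (95.32) far from its nearest start, Lipi. The Mid1 peak was also fully covered by H3K9me3 in both conditions, as was chr4:145200835-145201485 (92.96), nearest to Zfp980.

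Chromosome 14 held 151 of the 580 peaks (26.0%), against 110 of the 1802 shared peaks (6.10%) and 87 of the 1297 input-control-only peaks (6.71%). Chromosome 1 came next with 79 peaks (13.6%), and chromosome 4 had 38. On the X chromosome 15 of the 27 knockout-control peaks belonged to the set, and on Y 2 of 2. Nearly all of the chromosome 14 peaks lay in its distal end.

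**Figure D2:**
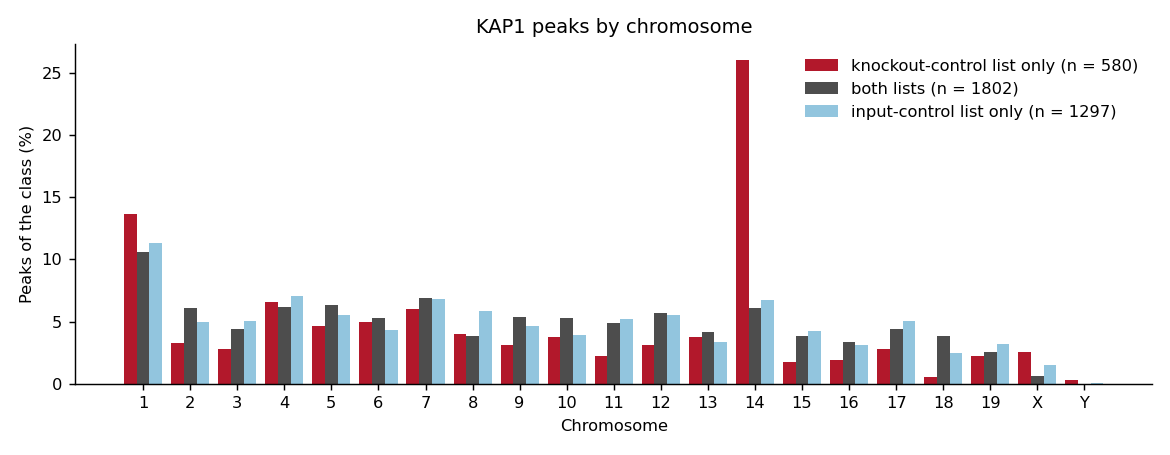
Share of each class of KAP1 peaks (vertical axis, percent of the class) on each mouse chromosome (horizontal axis). The red bar of chromosome 14 stands at 26.0% for the 580 peaks, and the bars of the 1802 shared and 1297 input-control-only peaks there are at 6.10% and 6.71%.

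From 90 Mb to its end, a boundary drawn after the peaks were seen, chromosome 14 carried 142 peaks of the set. That is 24.5% of the set, against 2.89% of the shared peaks, 3.47% of the input-control-only peaks and 2.48% of the peaks called in knockout chromatin. Within this stretch 73.2% of knockout-control peaks were absent from the input-control list (Wilson 95% interval 66.6 to 78.9), while before it the share was 13.4% (7.23 to 23.6) and on all other chromosomes 20.2% (18.6 to 22.0). Successive 10 Mb bins from 90 Mb held 12, 56, 50 and 24 peaks of the set. The bin with the most peaks on any other chromosome, chromosome 4 from 140 Mb, held 18.

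Dense runs of peaks made up most of the distal block. With gaps of at most 500 kb and at least 5 peaks, 11 runs were found in the genome and 8 of them lay there. The run with the most peaks held 30 over chr14:99236117-101406858, a segment with the starts of Klf5 and Klf12 (Krüppel-like transcription factors), the exosome nuclease gene Dis3, Mzt1 and Pibf1. A run of 24 peaks over chr14:118646942-121249463 held Dnajc3, Mbnl2 and Rap2a, and a run of 13 lay around Gpc6, a glypican gene. Peaks in the block were far from genes, with a median of 174712 bp to the nearest start against 46136 bp for the 438 peaks elsewhere.

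The distal block also had more H3K9me3 regions in the knockout list than in the wild-type list, as did other places with few peaks of the set. It held 417 H3K9me3 regions covering 361.1 kb in wild type and 1394 regions covering 1076 kb in knockout. As a share of all H3K9me3-covered bases, this was 0.799% in wild type and 2.82% in knockout. By 10 Mb bin the region counts went from 137, 205, 50 and 25 in wild type to 132, 466, 430 and 366 in knockout. The first bin was thus alike in both conditions and the last 3 had more regions in the knockout. Chromosome 14 from 40 to 50 Mb went from 107 to 663 regions with 0 peaks of the set, and from 50 to 60 Mb from 68 to 364 with 4. Chromosome 6 went from 1864 to 3901 regions with 29 peaks of the set, 23.4% of its knockout-control peaks.

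Of 48 genes of the block measured in ES3 cells, 27 had a knockout level 2-fold or more above wild type (56.3%). None was 2-fold or more below. Over all 12024 measured genes these shares were 12.5% and 3.18%. On the rest of chromosome 14, 87 of 361 measured genes were higher (24.1%) and 10 lower (2.77%), against 12.0% and 3.20% outside the chromosome. The median log2 ratio, computed as log2((knockout + 1)/(wild type + 1)) on RPKM, was 1.12 in the block, 0.54 on the rest of chromosome 14 and 0.07 outside the chromosome. By 10 Mb bin it was −0.13 (5 genes), 0.45 (16), 1.73 (12) and 2.04 (15). Dnajc3, a co-chaperone of the endoplasmic reticulum, stood at 3.22 RPKM in wild type and 39.1 in knockout, with a log2 ratio of 3.25. The small GTPase gene Rap2a stood at 2.70 and 30.6 RPKM, and Ipo5, an importin that carries ribosomal proteins into the nucleus, at 106.6 and 360.7. Zic2, a transcription factor of early neural development, stood at 3.07 and 23.5 RPKM. Klf5, a factor of ES cell self-renewal in the first bin, went the other way, from 180.3 to 105.8 RPKM (log2 ratio −0.76). These 5 genes were picked after their values were seen.

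MEFs gave other values for the block. There, 39 genes of the block were measured, none was 2-fold higher and 4 were 2-fold lower, with a median of −0.32. The measured genes are in part others than in ES3 cells, so the 2 medians do not cover the same genes. Dnajc3 stood at 22.7 RPKM in wild-type and 12.4 in knockout MEFs, and Zic2 was at 0.107 and 0.0551. The share of all measured MEF genes was 0.981% for higher and 4.84% for lower ones, against 10.3% lower in the block.

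RNA ratios differed between runs of peaks within the block. The run of 30 peaks held 6 measured genes with a median ES3 log2 ratio of −0.15 and none 2-fold higher. The run of 24 held 7 with a median of 2.26 and 6 higher. Over all measured ES3 genes 12.5% were 2-fold higher, and 6 or 7 genes are few for a share. Of the block's genes within 20 kb of a peak of the set, 4 of 9 were 2-fold higher (44.4%), and of those farther away 23 of 39 (59.0%). Whether the wild-type and knockout ES3 samples hold the same number of copies of chromosome 14 was not tested. Every value of the chromosome, in the block or before it, is read with that limit.

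**Figure D3:**
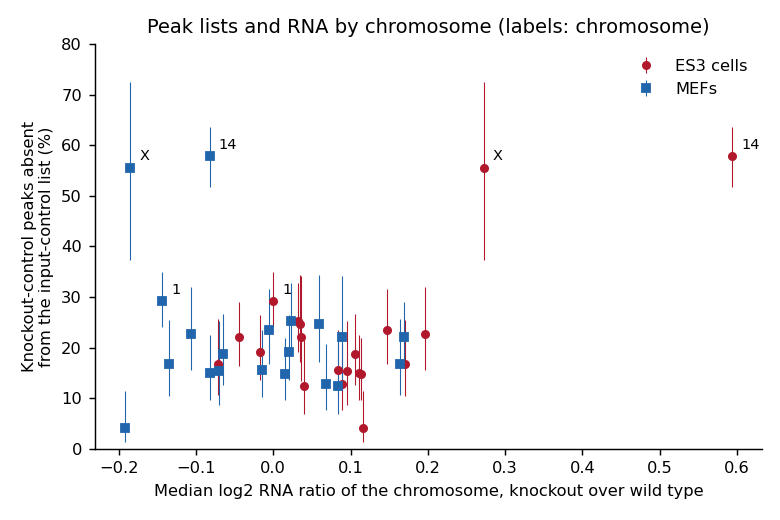
Share of knockout-control peaks absent from the input-control list (vertical axis, percent, with Wilson 95% intervals) against the median log2 RNA ratio, knockout over wild type (horizontal axis), 1 point per chromosome for ES3 cells (circles) and MEFs (squares). In ES3 cells chromosome 14 is at a median of 0.59 and the other chromosomes are between −0.07 and 0.27, whereas in MEFs it is at −0.08.

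Wild-type H3K9me3 lay under a smaller share of the set than of the shared peaks, and H3K9me3 found in the knockout alone lay under a larger share. H3K9me3 had no part in the rule. The shares carry no test, and their intervals cover counting error only. Of the 580 peaks, 116 (20.0%, Wilson 95% interval 16.9 to 23.4) overlapped a wild-type region, against 583 of 1802 shared peaks (32.4%, 30.2 to 34.5). Knockout regions were under 144 peaks of the set (24.8%, 21.5 to 28.5) and 384 shared peaks (21.3%, 19.5 to 23.3). Overlap with wild type and not knockout was 5.17% in the set (30 peaks, 3.65 to 7.29) and 15.0% among the shared peaks (13.5 to 16.8). Overlap with knockout and not wild type was 10.0% in the set (58 peaks, 7.82 to 12.7) and 4.00% among the shared peaks (3.18 to 5.00). The intervals of the last 2 shares do not overlap between the classes, but peaks are not replicates, so this is no test of a difference. Peaks of the input-control list alone lay between the set and the shared peaks on these 2 shares, at 9.25% and 5.78%. Wild-type regions were under 27.9% of them and knockout regions under 24.4%, near the 24.8% of the set. In all, 406 peaks of the set (70.0%) had no H3K9me3 region in either condition, against 63.7% of shared and 66.3% of input-control-only peaks.

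The same order of shares was measured without the distal block of chromosome 14. In the other 438 peaks the share over wild type and not knockout was 5.48% (3.71 to 8.02), against 15.1% (13.5 to 16.9) of 1750 shared peaks outside the block. Overlap with knockout and not wild type was 9.36% (6.98 to 12.5) against 3.60% (2.82 to 4.58). Within the block, wild-type H3K9me3 lay under 11 of 142 peaks (7.75%) and knockout H3K9me3 under 22 (15.5%). Among the deposited regions found in wild type only, 3.97% of the set (23 peaks) and 12.3% of the shared peaks had an overlap.

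**Figure D4:**
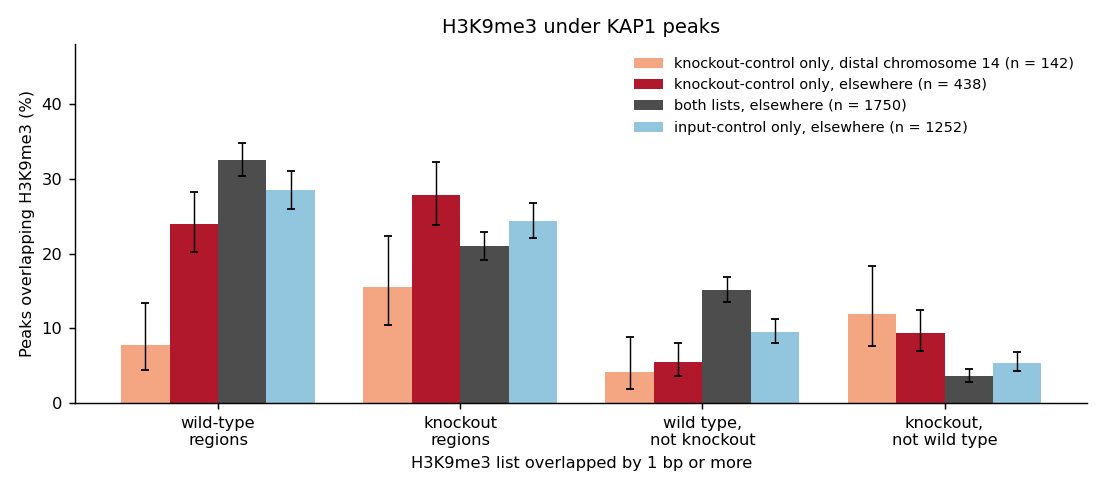
Share of KAP1 peaks (vertical axis, percent, with Wilson 95% intervals) that overlap H3K9me3 regions of wild type, of knockout, of wild type and not knockout, or of knockout and not wild type. Outside distal chromosome 14 the red bars (438 peaks) are at 5.48% for wild type and not knockout and 9.36% for knockout and not wild type, and the dark bars (1750 shared peaks) are at 15.1% and 3.60%; orange bars are the 142 distal chromosome 14 peaks and blue bars 1252 peaks of the input-control list alone.

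A zinc finger gene cluster on chromosome 4 held peaks with H3K9me3 in both conditions. Over chr4:144732718-146930157, 15 peaks of the set lay together, 14 of them over wild-type H3K9me3 and 14 over knockout H3K9me3, with none over a wild-type-only region. Their scores ran from 50.1 to 103.8. All 15 genes with a start there were measured in ES3 cells, 6 of them 2-fold or more above wild type in the knockout and none as far below, with a median log2 ratio of 0.90. Over all measured genes 12.5% were as far above and 3.18% as far below. In MEFs 8 of the 15 were measured, none was 2-fold higher or lower and the median was −0.55. Over all measured MEF genes 0.981% were higher and 4.84% lower. Zfp992 stood at 2.54 RPKM in wild type and 12.6 in knockout (log2 ratio 1.94), Zfp991 at 2.35 and 10.6 (1.80), and Gm13152 at 3.40 and 13.9 (1.76). Zfp600 stood at 2.88 and 6.79 RPKM (1.01), and Zfp987 at 6.99 and 12.1 (0.72). Another of the 6 rows shares the span of Zfp991. Zinc finger genes of this cluster may be similar copies that share reads, so their RPKM are uncertain. Their sequences were not compared here.

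A start of an annotated gene lay within 20 kb of 145 peaks of the set (25%, 21.6 to 28.7), against 30.4% (28.3 to 32.5) of shared peaks, and within 1 kb of 15 peaks. Outside the distal block the share was 29.5% (25.4 to 33.9), and inside it 11.3% (7.06 to 17.5). Gene spans held 215 peaks (37.1%), against 40.1% of shared and 37.2% of input-control-only peaks. A gene named Zfp held 4 peaks of the set (0.690%), against 18 shared peaks (0.999%).

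With chromosome 14 included, genes close to the set had about the same share of high ratios in knockout ES3 cells as genes in general. Their share of low ratios was larger. Within 20 kb were 200 genes, of which 139 were measured, that is, at 1 RPKM or more in at least 1 library. Of these, 17 had at least 2-fold more RNA in the knockout (12.2%, where 12.5% of all 12024 measured genes did) and 12 at least 2-fold less (8.63%, where 3.18% of all did). Genes near shared peaks gave 57 higher (11.8%) and 16 lower (3.31%) of 484 measured. The 12 lower genes lay near 10 different peaks and the 17 higher genes near 16. The lower genes include the small nucleolar RNA rows Snora44 and Snora61, which share a position, and Snord37. The median log2 ratio was 0.06 near the set and 0.08 over all genes. Without chromosome 14, 12 of 128 genes were higher (9.38%, where 12.0% of 11615 measured genes were). As many, 12, were lower (9.38%, where 3.20% were).

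**Figure D5:**
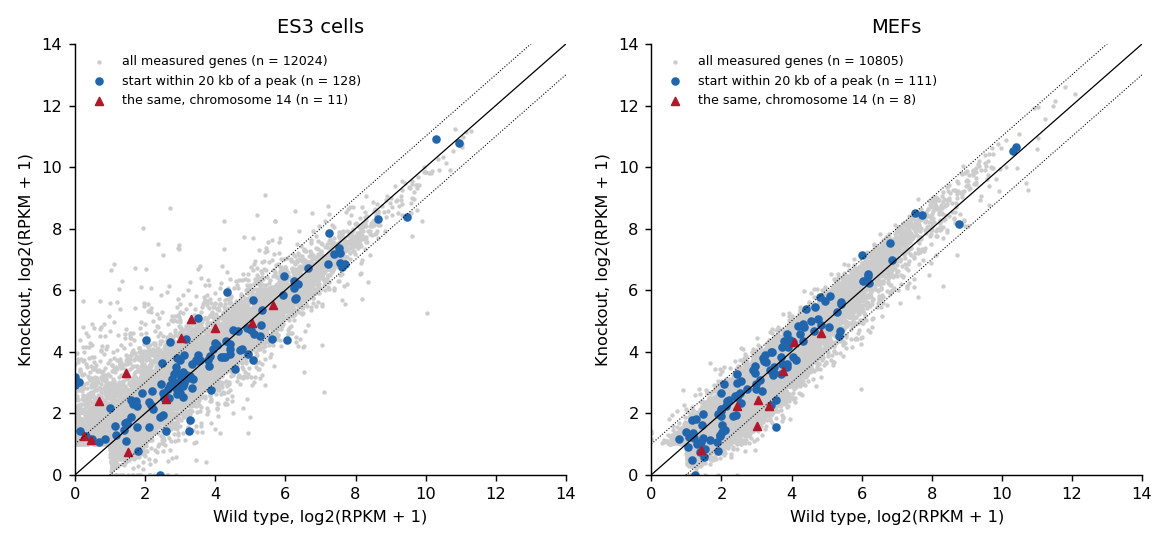
Wild-type (horizontal) against knockout (vertical) RNA on a log2(RPKM + 1) scale for all measured genes (grey) and genes with a start within 20 kb of a peak of the set (blue, and red triangles on chromosome 14), in ES3 cells at left and MEFs at right, 1 library per axis. The solid line marks equal values and the dotted lines a 2-fold ratio, beyond which lie 17 genes above and 12 below in ES3 cells, and 1 above and 7 below in MEFs.

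The highest ratios near the set belonged to Zscan4 genes, which are expressed at the 2-cell stage of the mouse embryo and in rare ES cells. Zscan4f stood at 0.00294 RPKM in wild type and 8.11 in knockout (log2 ratio 3.18), with its start 13665 bp from chr7:11996929-11997244, a peak over H3K9me3 in both conditions. Zscan4c stood at 0.00227 and 6.66 RPKM (2.93) and Zscan4d at 0.00226 and 6.50 (2.90). These 2 share 1 deposited position, 13654 bp from chr7:11604725-11605075 (score 82.11), and cannot be told apart. Such near-identical copies can share reads, so the 3 values count as 1 observation of uncertain size.

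The other 5 of the 8 highest ratios came from unrelated genes. Cml2, an acetyltransferase-like gene, had 0.0736 RPKM in wild type and 7.002 in knockout (2.90), and its start lay 123 bp from chr6:85818451-85819029, over H3K9me3 in wild type and not knockout. Eps8l2, a regulator of the actin cytoskeleton, stood at 3.09 and 19.6 RPKM (2.34). Sall2, a zinc finger transcription factor gene, stood at 1.76 and 8.91 RPKM (1.84), and its start lay 314 bp from chr14:52947548-52948123, which had no H3K9me3. Ubac2 stood at 8.95 and 32.5 RPKM (1.75) and Sox21, a neural transcription factor, at 0.598 and 4.33 (1.74). Both of these lie in the distal block of chromosome 14. Sall2 lies on the same chromosome before the block, where 24.1% of 361 measured genes were 2-fold higher, against 12.0% outside the chromosome.

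Genes of the pluripotent state and an oocyte gene were among the lower ones. Nr5a2, an orphan nuclear receptor that acts on the Oct4 gene, had 8.48 RPKM in wild type and 1.71 in knockout (log2 ratio −1.81), 10685 bp from chr1:138867689-138868249. Dppa5a, an RNA-binding protein gene typical of ES cells, stood at 712.8 and 328.6 RPKM (−1.11), and chr9:78215207-78215886 lay inside it, 98 bp from its start and over H3K9me3 in both conditions. Ooep, a subunit of the oocyte's subcortical maternal complex, had its start 10646 bp from the same peak and stood at 48.1 and 20.3 RPKM (−1.20).

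The 8 lowest ratios held Nr5a2, Ooep and 6 other rows. Aldh9a1, an aldehyde dehydrogenase gene, stood at 64.4 and 19.8 RPKM (−1.65), Isoc2a at 32.9 and 12.4 (−1.34) and Dhodh, an enzyme of pyrimidine synthesis, at 22.6 and 9.76 (−1.13). Accsl stood at 5.08 and 1.70 RPKM (−1.17), with its start 3814 bp from chr2:93713128-93713584 (score 91.44). The row named Snora61 stood at 8.70 and 2.41 RPKM (−1.51), and shares its position with the row named Snora44. Snord37 had 4.36 RPKM in wild type, and its knockout value is listed at 0.

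These RNA values stand beside wider shifts in the knockout ES3 cells, whose part in them was not tested. In bulk RNA, fewer cells of a type and less RNA per cell cannot be told apart. Over all measured ES3 genes 12.5% were 2-fold higher and 3.18% lower. Of 29 pluripotency genes, all measured, 14 were 2-fold lower and none higher, and their summed level went from 3655 to 1880 RPKM. Of 25 measured primitive endoderm genes (the extraembryonic lineage next to the epiblast), 24 were higher and 1 lower, and their summed level went from 1207 to 2955 RPKM. Fibroblast and matrix genes were higher in 12 of 18 measured, from 251.8 to 719.2 RPKM summed, and endothelial genes in 6 of 10, with 1 lower, from 25.7 to 44.0 RPKM. Genes of the 2-cell stage, a list that holds the 3 Zscan4 genes, were higher in 10 of 15 measured and lower in none, from 63.4 to 115.7 RPKM summed.

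Of all 17818 genes of the ES table, 321 (1.8%) had a peak of the set in their span or within 20 kb of their start, and the gene lists are given beside this share. Of 34 genes of the TRIM28 pathway none did, nor any of 26 fibroblast and 12 endothelial genes. Among 63 imprinted genes 1 did, Nnat, a paternally expressed membrane protein gene, at 10.4 RPKM in wild type and 33.1 in knockout (log2 ratio 1.58), 17222 bp from its peak. Of 28 primitive endoderm genes 1 did, Lamc1, a basement membrane laminin gene, at 137.6 and 303.2 RPKM (1.13), with chr1:155126261-155126795 in its span. The pluripotency list gave Dppa5a and Nr5a2 of 29, and the list of genes of the 2-cell stage gave the 3 Zscan4 genes of 17. Of 18 housekeeping genes 1 did, the elongation factor gene Eef1a1, at 1267 and 1917 RPKM (0.60).

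Zinc finger genes named Zfp had 13 of 326 with a peak of the set. Of these, 10 were measured in ES3 cells, none was 2-fold higher and none 2-fold lower, while over the whole list 18 of 274 were higher and 4 lower. The highest peak score, 63.8, was shared by Zfp112, which was not measured (0.0471 and 0.304 RPKM), and Zfp180 (5.31 and 4.31 RPKM, log2 ratio −0.25), whose span holds the peak. Zfp513 had a peak of score 62.27 and stood at 7.97 and 8.11 RPKM (0.02). Zfp580 and Zfp784 shared a peak of score 57.33, and Zfp580 stood at 5.57 and 6.53 RPKM (0.20) while Zfp784 was not measured. Zfp568, a KRAB zinc finger gene, held a peak of score 57.13 and stood at 16.9 and 13.3 RPKM (−0.33).

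KAP1 peaks of MEFs were not analysed here, so the MEF values below are for genes near the ES3 peaks. Of 119 measured genes within 20 kb, 1 was at least 2-fold higher (0.840%, where 0.981% of all 10805 measured genes were) and 7 were lower (5.88%, where 4.84% of all were). The median log2 ratio was 0.11, against 0.00 over all genes. Gstp1, a glutathione transferase gene, was the 1 higher gene, at 63.4 RPKM in wild type and 139.6 in knockout (1.13). Its neighbour and close copy Gstp2 stood at 27.2 and 54.3 RPKM (0.97), so reads may be shared. Mosc2 stood at 20.4 and 41.3 RPKM (0.99) in MEFs and at 19.3 and 60.6 (1.60) in ES3 cells. The microRNA gene row Mir703, within the span of Eef1a1, stood at 181.5 and 359.4 RPKM (0.98). Xist, the noncoding RNA of X inactivation, stood at 10.8 and 1.92 RPKM in MEFs (−2.02), and its start lay 3483 bp from chrX:100674431-100675073. Pcdh9, a protocadherin gene on distal chromosome 14, stood at 7.10 and 2.01 RPKM (−1.43), and Snord37 at 1.39 RPKM and listed at 0. Zscan4d and Zscan4f were listed at 0 in both MEF libraries.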

How the data were processed

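Of 18 libraries in the labels (6 of RNA, 6 input and 6 immunoprecipitated), 4 RNA libraries and the ES3 lists of KAP1 and H3K9me3 regions were used. H3K27ac, Rex1GFP and input libraries were not analysed here. Bowtie and mm9 are named per the submitters' processing notes. Not given in the sources used here are their versions, the counter, the H3K9me3 caller and the treatment of repeated sequence. RNA values are RPKM as deposited (reads scaled to transcript length and library) per RefSeq transcript. KAP1 peaks have names of the kind MACS writes and a deposited score of unstated scale, none below 50.01. Which chromatin was the control of each KAP1 list is taken from the names the authors deposited the lists under. The H3K9me3 lists give starts and ends alone, with no level. The ES table's columns were taken as ES3. Values of 0 columns could not be matched to a sample.

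Peaks overlapped at 1 bp or more. Within each table, ratios are log2((knockout + 1)/(wild type + 1)) with a pseudocount of 1 RPKM, for the transcript of each symbol with the highest mean and genes at 1 RPKM or more in 1 library, and were called at 2-fold. A gene at 0 in 1 library is measured only through the other. Blank symbols (780 in ES, 778 in MEF rows) and symbols turned into dates (40 and 39) took the reference symbol of their transcript. A gene was near a peak when its start lay within 20 kb. Shares have Wilson 95% intervals. Depth is unknown, so no counting interval is given for RNA.

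The peaks, gene lists and settings were chosen with earlier results of these data known. The rule for naming took the 10 highest-scored peaks, the 5 highest over wild-type H3K9me3, the 8 largest and 8 smallest ES3 and 3 and 3 MEF ratios of genes near a peak, list genes with a peak (in a list with more than 12, the 6 with the highest peak score), peaks nearest the rule's edge and genes whose start lay in a peak. Zic2, Dnajc3, Rap2a, Ipo5, Klf5, Gstp2 and the genes of the chromosome 4 cluster were added after their values were seen. Alternatives were other overlaps, windows, pseudocounts, filters, folds and centring, and peaks at or above the list's median score; leaving out chromosome 14 and centring by chromosome were chosen after seeing the data. Scripts were tested on simulated data and used Python 3.11.15, pandas 2.3.3, numpy 2.4.6, scipy 1.17.1, Biopython 1.88 and matplotlib 3.10.9.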

Additional observations from a re-analysis of the deposited data

How the results depend on the processing

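Each group was 1 library or 1 list, so no setting leaves out a replicate. No paired analysis was possible because each group held 1 library. A score and an RPKM without counts give no depth, and low RPKM cannot be told from counting noise. Of 101 values recomputed, 60 kept within the limits set, 39 moved and 2 changed sign; the cause of each change was not tested beyond what its construction shows.

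Keeping peaks at or above the list's median score of 59.66 left 167 of 580. Their share over wild-type H3K9me3 was 26.3%, over knockout H3K9me3 38.9% and over wild-type-only H3K9me3 2.40%. With 50% of the peak covered, the first 2 shares were 16.9% and 20.9%. With a region within 1 kb, the 3 shares were 23.6%, 29.7% and 6.38%. Without chromosome 14 from 90 Mb the share over wild-type H3K9me3 was 24.0%, and without the chromosome 24.2%. A gene start lay within 1 kb of 2.59%, within 10 kb of 16.2%, within 50 kb of 43.8% and within 100 kb of 61.2% of peaks; at 20 kb it was 29.5% without the distal block and 29.1% without chromosome 14.

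In ES3 cells the 17 higher genes of 139 measured became 11 with a pseudocount of 5 RPKM and 10 at 3-fold. By window they were 8 of 73 measured genes within 10 kb, 40 of 335 within 50 kb and 88 of 639 within 100 kb. The 12 lower genes became 5 with a pseudocount of 5 RPKM and 3 at 3-fold. Within 10, 50 and 100 kb they were 6 of 73, 18 of 335 and 29 of 639. At the main settings 12.5% of all measured ES3 genes were higher and 3.18% lower. These shares were not recomputed at the other pseudocount and fold, so the counts at those settings have no like comparison. The ES3 median log2 ratio changed sign to −0.0163 with a filter at 5 RPKM and to −0.0227 when centred on the median of all genes. In MEFs the 1 higher gene became 3 with a pseudocount of 0.1 RPKM, 0 at 3-fold and 2 when centred by chromosome. By window it became 3 of 290 measured genes within 50 kb and 7 of 545 within 100 kb. The 7 lower genes became 14 and 1 with pseudocounts of 0.1 and 5 RPKM, and 1 at 3-fold. Within 10, 50 and 100 kb they were 4 of 65, 13 of 290 and 21 of 545. At the main settings 0.981% of all measured MEF genes were higher and 4.84% lower, and these shares too were not recomputed at other pseudocounts, folds or centring. The MEF median was 0 with no filter and 0.24 with a filter at 5 RPKM.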
